A study of Mus musculus with 19 samples.

Results

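MAP kinase feedback in dorsal root ganglion (DRG) neurons was followed through 10 genes, namely the dual-specificity phosphatases Dusp1, Dusp2, Dusp4, Dusp5, Dusp6, Dusp8, Dusp10, Dusp14 and Dusp16, and the Sprouty inhibitor Spry2. They are grouped by their known role in switching off ERK, JNK and p38 signalling, and were chosen with earlier results of these data known. Of these, 8 were among the 12629 genes of the expression table. Dusp4 and Dusp16 had no row in it and were not analysed here.

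MAP kinases are switched on by a relay of kinases, from Ras through Raf and MEK to ERK and by parallel relays to JNK and p38. The dual-specificity phosphatases named above remove both activating phosphates from a MAP kinase. Sprouty proteins act further upstream, between receptor tyrosine kinases and Ras. Several of these genes are themselves switched on by ERK or by stress, so that the pathway makes its own brake. In sensory neurons the pathway is known for relaying neurotrophin, injury and integrin signals to the nucleus.

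Sequencing covered 19 libraries of sorted DRG neurons in 4 groups. All animals received AAV5 vectors in the left C5 to C8 DRGs 8 weeks before harvest. The controls carried AAV5-CMV-fGFP, without injury (GFP-naive, n = 5) or with crush of the dorsal roots (GFP-crush, n = 4). The others carried AAV5-CAG-α9-V5 together with AAV5-CMV-kindlin1-GFP, that is α9 integrin and its activator kindlin-1, without injury (α9k1-naive, n = 6) or with crush (α9k1-crush, n = 4). Both α9k1 groups were sorted for the GFP on kindlin-1 and not for α9, so that a sorted cell need not hold α9. The sample labels name C57BL/6 mice, whereas the study's methods name adult male Lewis rats, and reads were aligned to the mouse genome with 3.87 to 4.05% of aligned bases mismatched. The study calls the libraries of a condition biological replicates, but the labels name no animal for any of them, and the p-values measure the spread between these libraries.

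Libraries held 36387140 to 87576777 read pairs, of which 47.5 to 54.1% aligned. Values are deposited log2 levels corrected for gene length and depth. Setting levels of different genes side by side also assumes that their reads aligned equally well to the mouse genome. If the reads come from rats, as the study's methods state, genes may differ in this, which was not tested. The depth behind a single gene value is unknown, because gene counts were not used here. Fermt1, which encodes kindlin-1, lay between 5.18 and 7.73 in the α9k1 libraries and between 0.42 and 0.80 in the GFP libraries. Itga9 lay between 5.53 and 7.51 in α9k1-crush and between 0.90 and 1.92 in GFP-crush, while α9k1-naive (2.38 to 5.16) and GFP-naive (1.77 to 2.40) overlapped. All 10 DRG neuron markers listed had values, and so did 8 of 8 satellite glia and Schwann cell markers, 10 of 12 macrophage markers and 6 of 9 endothelial and fibroblast markers. Apoe, one of the glial markers that macrophages also make, had a mean level of 16.46 in α9k1-naive, above any neuron marker there (highest mean 11.23, Uchl1).

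The promoters of the 4 genes that were higher in α9k1-naive than in GFP-naive are shown to set their regulatory sequence beside their levels. RefSeq windows (GRCm38.p6) matched 9 of the 10 genes by symbol. The stretches run 5′ to 3′ on the strand of the gene and stop before the first transcribed base of either RefSeq or the gene table. Capitals mark the full cyclic AMP response element (CRE, TGACGTCA) in Dusp1 and the pair of CArG boxes in Dusp5, the sequence that serum response factor binds.
Dusp1 (chr17:26508520-26508722, minus strand): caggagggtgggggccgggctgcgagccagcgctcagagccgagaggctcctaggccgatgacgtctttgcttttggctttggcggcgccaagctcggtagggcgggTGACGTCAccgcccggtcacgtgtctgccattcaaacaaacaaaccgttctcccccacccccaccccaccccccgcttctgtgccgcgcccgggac
Dusp2 (chr2:127335909-127336158, plus strand): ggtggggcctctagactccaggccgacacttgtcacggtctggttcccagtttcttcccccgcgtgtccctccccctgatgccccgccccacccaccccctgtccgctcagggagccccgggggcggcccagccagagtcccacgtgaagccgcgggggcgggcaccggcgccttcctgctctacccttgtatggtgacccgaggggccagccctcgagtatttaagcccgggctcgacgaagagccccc
Dusp5 (chr19:53528895-53529108, plus strand): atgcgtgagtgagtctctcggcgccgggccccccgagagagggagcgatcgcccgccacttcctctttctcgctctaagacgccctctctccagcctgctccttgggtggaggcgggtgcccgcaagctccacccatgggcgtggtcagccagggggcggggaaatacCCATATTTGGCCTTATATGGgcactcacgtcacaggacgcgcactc
Spry2 (chr14:105896820-105897069, minus strand): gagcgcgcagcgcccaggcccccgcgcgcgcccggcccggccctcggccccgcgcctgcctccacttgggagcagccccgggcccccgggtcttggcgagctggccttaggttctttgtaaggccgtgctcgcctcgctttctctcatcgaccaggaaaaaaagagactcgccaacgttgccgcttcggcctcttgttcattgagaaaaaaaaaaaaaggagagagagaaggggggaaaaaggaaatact

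Matches were sought on both strands of 300-base windows. The CRE was found in 2 of 9 windows of these genes, Dusp1 and Dusp8, and in 1.79% of 32851 promoters. A CArG box was found in 1 of 9, Dusp5, against 1.63% of promoters, and the Dusp5 boxes began 82 and 72 bases before the RefSeq start, next to each other. The CRE core TGACG, which every full CRE contains, was in 5 of 9 and in 20.8% of promoters. The STAT motif TTCNNNGAA was in 1 of 9, Dusp14, and in 8.3% of promoters, and the AP-1 site TGACTCA in 0 of 9 and in 5.2%. Dusp2 and Spry2, which were also higher in α9k1-naive, held no full CRE, CArG box, AP-1 or STAT match in this window. A match describes these letters in the mouse genome and says nothing of whether a factor was bound.

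Dusp1 encodes a nuclear phosphatase of JNK, p38 and ERK that is induced within minutes by stress or growth factors. It had the highest deposited level of the 8 genes, with a mean of 8.32 in α9k1-naive. Its levels in the 5 GFP-naive libraries were 7.44, 7.56, 7.64, 7.61 and 7.37. In α9k1-naive they ran from 7.94 through a median of 8.37 to 8.66. The groups did not overlap. After crush, the GFP libraries had Dusp1 levels of 6.79, 6.54, 6.73 and 6.86, and the α9k1 libraries 7.78, 8.07, 7.27 and 8.17. Every GFP-crush library lay below every library of the other 3 groups, and α9k1-crush replicate 3 was the only α9k1 library that lay below the GFP-naive range.

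Dusp2 encodes a nuclear, inducible phosphatase of ERK that is best known from activated immune cells. Its levels in GFP-naive were 1.64, 1.56, 0.96, 2.20 and 0.16, among the lowest in the table (the group mean was at percentile 0.736 of all genes). In GFP-crush they were 3.30, 2.59, 3.05 and 3.53. In α9k1-crush they were 5.12, 5.06, 4.76 and 5.33, and in α9k1-naive they ran from 5.11 through a median of 5.48 to 5.85. GFP-naive, GFP-crush and the pair of α9k1 groups thus formed 3 separate ranges, and only the α9k1 groups overlapped each other.

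Dusp5 encodes a nuclear phosphatase that acts on ERK and on no other MAP kinase. In GFP-naive its levels were 1.69, 1.59, 2.03, 1.06 and 1.30, and in GFP-crush 1.69, 1.62, 1.52 and 1.33. In α9k1-crush they were 2.56, 2.52, 2.31 and 2.28, and in α9k1-naive they ran from 3.68 through a median of 3.87 to 4.02. Both GFP groups were among the lowest in the table (group means at percentiles 1.14 and 0.982 of all genes). The range of GFP-crush lay within that of GFP-naive, and α9k1-crush lay alone between the GFP groups and α9k1-naive. An antisense gene overlaps exons of Dusp5, and the library kit does not mark strand, so that reads from the pair cannot be told apart.

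Dusp6 encodes the cytoplasmic phosphatase of ERK and is a classical transcriptional target of ERK itself. Its levels in GFP-naive were 4.98, 5.30, 4.77, 5.15 and 4.95, the highest of the 4 groups. In α9k1-naive they ran from 3.77 through a median of 4.14 to 4.29, in GFP-crush they were 3.40, 3.91, 3.82 and 4.35, and in α9k1-crush 3.35, 3.96, 3.44 and 3.24. GFP-naive lay above all others without overlap, and the other 3 groups overlapped each other.

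Spry2, which restrains signalling from receptor tyrosine kinases to Ras and ERK, had levels of 5.35, 5.20, 5.46, 5.67 and 5.41 in GFP-naive. In GFP-crush they were 4.60, 4.83, 5.19 and 4.70, and in α9k1-crush 5.47, 5.39, 5.21 and 5.62. In α9k1-naive they ran from 6.85 through a median of 7.06 to 7.16. The α9k1-naive libraries stood alone above the rest. α9k1-crush and GFP-naive had almost the same mean (5.42 and 5.42), and GFP-crush lay below both, its highest library (5.19) just under the lowest of GFP-naive (5.20).

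The 3 remaining genes were Dusp8, Dusp10 and Dusp14. Dusp8, a phosphatase of JNK and p38, ranged from 3.93 to 5.21 over all 19 libraries, and its group means ran from 4.21 in GFP-crush to 4.85 in α9k1-crush. Dusp10, also a phosphatase of JNK and p38, ranged from 1.61 to 3.33, with means from 2.23 in GFP-crush to 3.09 in α9k1-naive. Dusp14, a small phosphatase of several MAP kinases, ranged from 3.77 to 4.56, with means from 4.04 in GFP-naive to 4.36 in α9k1-naive. For these 3 genes the groups overlapped in all 4 comparisons. A long non-coding gene overlaps exons of Dusp8 on the other strand.

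**Figure D1:**
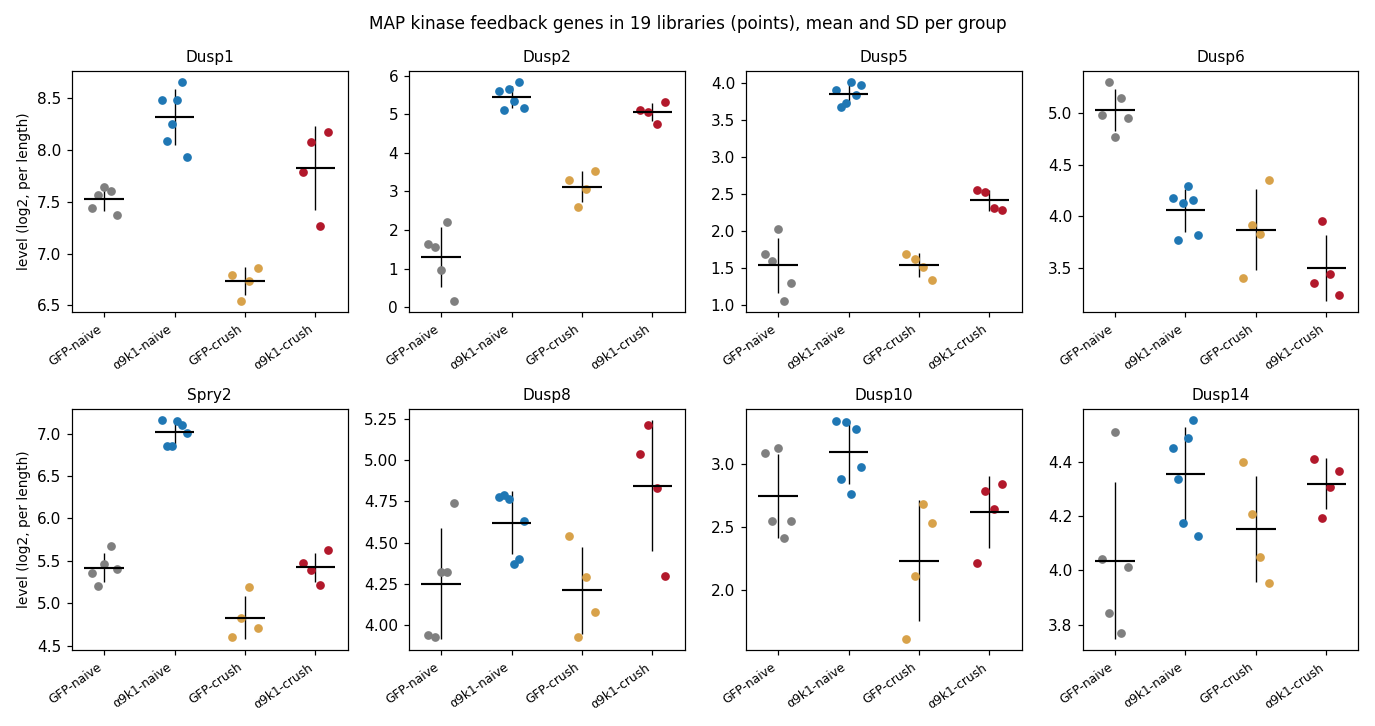
Deposited log2 level (vertical axis, per length, a separate scale for each gene) of the 8 genes in each library (points) of the 4 groups, with the group mean (horizontal line) and SD (vertical line). Dusp1, Dusp2, Dusp5 and Spry2 are highest in α9k1-naive, Dusp6 is highest in GFP-naive, and the groups overlap for Dusp8, Dusp10 and Dusp14.

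To ask what α9k1 changed without injury, α9k1-naive was compared with GFP-naive. Dusp1, Dusp2, Dusp5 and Spry2 were higher and Dusp6 was lower. The fit was limma on all genes and libraries, with 3 library-quality components as covariates and Benjamini-Hochberg adjustment over 12629 genes, and a gene was called at an adjusted p below 0.1. Of the 8 genes 4 were called higher and 1 lower, where 11.4% of all genes were called higher and 17.6% lower. Their median log2 fold change (log2FC) was 0.65, against -0.08 over all genes. Dusp2 had a log2FC of 3.91 (SE 0.35, limma adjusted p = 1.36e-06). Dusp5 had a log2FC of 2.47 (SE 0.19, limma adjusted p = 2.78e-07). Because Dusp2 and Dusp5 were both near the lowest levels of the table in GFP-naive, the sizes of these folds depend on the small pseudocount that the authors added. Spry2 had a log2FC of 1.72 (SE 0.15, limma adjusted p = 1.41e-06). Dusp1 was higher by a log2FC of 0.82 (SE 0.20, limma adjusted p = 0.00972), which became 1.29 without α9k1-naive replicate 6. Dusp6 had a log2FC of -1.10 (SE 0.22, limma adjusted p = 0.00292). These 5 genes did not overlap between the groups, as held for 21.7% of all genes. Dusp5 and Dusp6, both specific to ERK, therefore moved in opposite directions in the same libraries. Dusp8 (log2FC 0.45, 95% interval -0.06 to 0.97), Dusp10 (0.49, -0.06 to 1.05) and Dusp14 (0.30, -0.08 to 0.67) did not pass, and their intervals include both no change and a modest increase. Dusp14 was called without covariates (0.32, limma adjusted p = 0.0518) and without GFP-naive replicate 3 (0.36, 0.0909), and Dusp8 without covariates (0.37, 0.0992). Leaving out α9k1-naive replicate 6 moved Dusp10 to 0.85, which did not pass either (0.118), and Dusp14 to 0.52. Without GFP-naive replicate 4 Dusp14 was at 0.11, and without GFP-naive replicate 1 Dusp8 was at 0.24. The call of Dusp6 was lost (log2FC -0.92, adjusted p = 0.116) when the replicate number entered the fit as a block.

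Levels of other cell types and of handling genes differed between the same groups. The summed level of 15 immediate early and heat shock genes known to respond to tissue dissociation was 13399 to 18304 in α9k1-naive and 4558 to 5604 in GFP-naive, and Dusp1 itself is an immediate early gene. The 10 macrophage markers summed to 455 to 623 in α9k1-naive and to 179 to 259 in GFP-naive. Itgam and Cx3cr1 had no row, Adgre1 had a mean level of 2.11 and 1.78, and 7 of 10 were called higher. The 8 glial markers summed to 80790 to 115095 and 54622 to 70739, with 2 called higher and 4 lower, and the 6 endothelial and fibroblast markers to 111 to 319 and 740 to 925. The 10 neuron markers summed to 5935 to 7363 and 8501 to 10984, with 1 called higher and 3 lower. The part of these differences in the levels of Dusp1, Dusp2, Dusp5, Dusp6 and Spry2 was not tested. In bulk libraries, fewer cells of a type and less RNA per cell cannot be told apart.

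Controls with and without injury were compared as GFP-crush against GFP-naive. Dusp2 was higher, and Dusp1, Dusp6 and Spry2 were lower. Of the 8 genes, 1 was called higher and 3 lower, where 7.39% of all genes were called higher and 15.7% lower, and the median log2FC was -0.31 against -0.08. Dusp2 rose (log2FC 1.77, SE 0.35, limma adjusted p = 0.00482). Dusp6 had a log2FC of -1.0 (SE 0.23, limma adjusted p = 0.0101), Dusp1 of -0.86 (SE 0.20, limma adjusted p = 0.0128) and Spry2 of -0.68 (SE 0.15, limma adjusted p = 0.0104). None of these 4 overlapped between the groups, against 19.8% of all genes. Dusp5 had a log2FC of -0.06 (95% interval -0.46 to 0.35), and, as both groups lay near the lowest levels of the table, a fall could hardly be seen. Dusp10 did not pass (log2FC -0.56, adjusted p = 0.159, and -0.37 without GFP-crush replicate 1), nor did Dusp8 (0.01) and Dusp14 (0.15, from 0.036 to 0.34 when each library was left out). When only these 9 libraries were fitted in limma, 2 of the 8 were called, against 7.32% of all genes, and Dusp6 (log2FC -1.10, adjusted p = 0.129) and Spry2 (-0.73, 0.152) were not among them. The macrophage sum was 564 to 854 in GFP-crush, against 179 to 259 in GFP-naive, and was thus higher, as Dusp2 was. Across the groups the order differed. The median macrophage sum was 774 in GFP-crush, 563 in α9k1-naive and 580 in α9k1-crush, where the Dusp2 means were 3.12, 5.45 and 5.06. The sum of the dissociation genes was 1938 to 2702 against 4558 to 5604, and was thus lower, as Dusp1, Dusp6 and Spry2 were. The other sums separated these groups as well, with neuron markers at 12690 to 17296 against 8501 to 10984 (6 of 10 called higher), glial markers at 33342 to 41766 against 54622 to 70739, and endothelial and fibroblast markers at 333 to 439 against 740 to 925. Their part in these results was not tested.

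After crush, α9k1 was compared with GFP in the injured neurons. Dusp1, Dusp2, Dusp5 and Spry2 were each above GFP-crush in all 4 α9k1-crush libraries, but no gene of the 8 passed the test. In limma 0 of the 8 were called, where 0.911% of all genes were. Without adjustment 4 of the 8 had p below 0.05, as did 9.11% of all genes, and the limma fit without covariates called 5. Separation of these 4 genes between the groups stands beside 20% of all genes that lay higher without overlap. The median log2FC of the 8 genes was 0.80, against 0.01 over all genes. Dusp2 had a log2FC of 2.52 (SE 0.75, limma adjusted p = 0.25), Dusp1 of 1.66 (SE 0.44, limma adjusted p = 0.157), Dusp5 of 1.12 (SE 0.41, limma adjusted p = 0.401) and Spry2 of 1.02 (SE 0.33, limma adjusted p = 0.305). Dusp6 had a log2FC of -0.56 (95% interval -1.61 to 0.48), and its groups overlapped.

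The covariates weigh heavily in this comparison. The third quality component differed mostly between groups (74.5% of its variance), and the variance of the α9k1-crush against GFP-crush difference was 3.11 times the residual variance with the covariates and 0.5 times without. Fitted without them, the differences were smaller in size for the 4 separated genes and passed the test. Dusp1 then had a log2FC of 1.09 (limma adjusted p = 8.01e-05), Dusp2 of 1.95 (8.94e-05), Dusp5 of 0.88 (0.000243) and Spry2 of 0.59 (0.00136), with Dusp8 as the fifth (0.63, 0.014). In that fit 29.6% of all genes were called higher and 28.3% lower. Library quality and group cannot be told apart here beyond what this pair of fits shows. Single libraries also decided calls: Dusp1 passed without α9k1-crush replicate 3 (adjusted p = 0.044) or α9k1-naive replicate 6 (0.0143), and Dusp2 without GFP-naive replicate 1 (0.0411). The dissociation genes summed to 5335 to 8175 in α9k1-crush and 1938 to 2702 in GFP-crush, while the macrophage sums overlapped (450 to 857 and 564 to 854).

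Among neurons with α9k1, crush was compared with no injury. Dusp5 and Spry2 were lower after crush. Here 2 of the 8 were called lower and 0 higher, where 5.27% of all genes were called lower and 4.47% higher. Dusp5 had a log2FC of -1.41 (SE 0.34, limma adjusted p = 0.0275) and Spry2 of -1.38 (SE 0.28, limma adjusted p = 0.0101), and neither overlapped between the groups, against 33.4% of all genes. The call of Dusp5 ended with the replicate number as a block (log2FC -0.92, adjusted p = 0.305), and both calls ended when only these 10 libraries were fitted (log2FC -1.30 and -1.02, adjusted p = 0.138 and 0.232), a fit that called 1.6% of all genes. Dusp1 (log2FC -0.02, 95% interval -0.79 to 0.76), Dusp2 (0.37, -0.95 to 1.70), Dusp6 (-0.47, -1.33 to 0.39) and Dusp10 (-1.0, -2.0 to 0.003) did not pass, and their intervals are wide. Dusp6 was at -0.24 without GFP-crush replicate 1. Without covariates, 5 of the 8 were called lower, where 27.1% of all genes were, and the added ones were Dusp1 (-0.49), Dusp6 (-0.56) and Dusp10 (-0.47). The dissociation sum was 5335 to 8175 after crush and 13399 to 18304 without, the glial sum 21671 to 33836 and 80790 to 115095, and the neuron sum 12740 to 17682 and 5935 to 7363. Their part in the lower Dusp5 and Spry2 was not tested.

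Whether α9k1 acted differently after crush was tested as an interaction. In that test 0 of 8 genes were called, against 2.2% of all genes, and 2 had an unadjusted p below 0.05, as did 14% of all genes. In order of p, the interaction was -1.35 for Dusp5 (SE 0.39, limma adjusted p = 0.127), -0.70 for Spry2 (SE 0.32, limma adjusted p = 0.333), 0.85 for Dusp1 (SE 0.42, limma adjusted p = 0.383) and -1.40 for Dusp2 (SE 0.71, limma adjusted p = 0.403). Single libraries moved these values, that of Dusp5 to -0.89 without GFP-naive replicate 4, and that of Dusp2 to -0.78 without GFP-naive replicate 1 and to -2.04 without GFP-crush replicate 2. Dusp5 passed without GFP-naive replicate 3 (limma adjusted p = 0.0607) and with each library centred on its median (0.0965). Without covariates, 4 of the 8 were called in limma, with negative interactions for Dusp2 (-2.20), Dusp5 (-1.44) and Spry2 (-1.01) and a positive one for Dusp6 (0.60), where 16.1% of all genes were called negative and 23.3% positive. The α9k1 effect on Dusp6 in that fit was -0.97 without injury and -0.37 after crush, so that all 4 effects were smaller in size after crush.

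**Figure D2:**
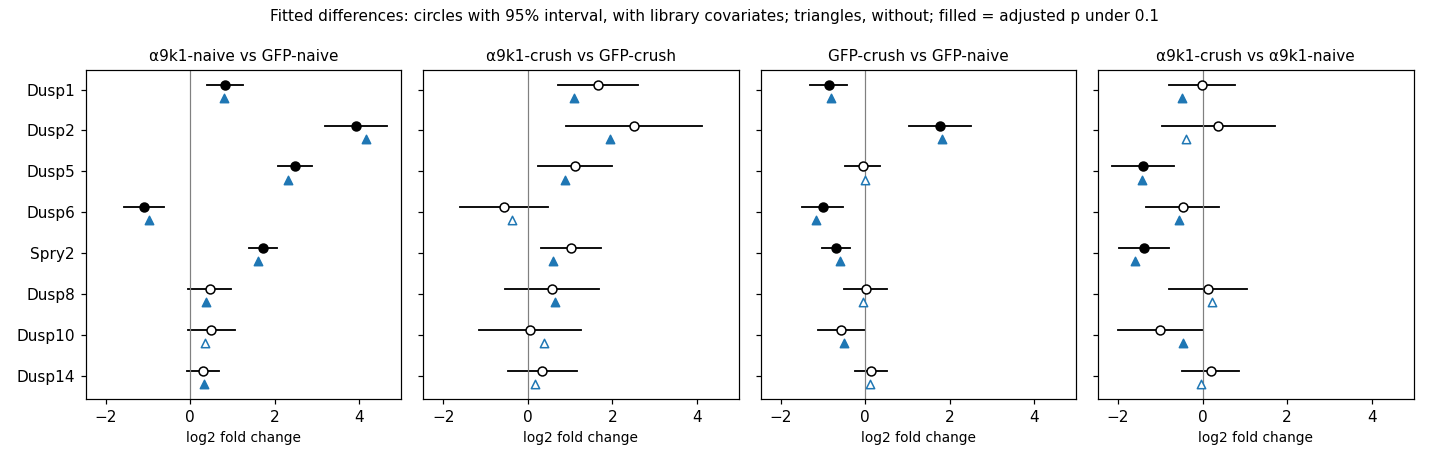
Fitted log2 fold change (horizontal axis) of the 8 genes in the 4 comparisons, with the library covariates (circles, 95% interval) and without them (triangles), filled where the adjusted p was below 0.1. The α9k1-crush panels have the widest intervals, and in α9k1-crush against GFP-crush 0 circles and 5 triangles are filled.

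Each comparison shares a group with others, so that the values of a gene are set side by side only. GFP-naive serves both α9k1-naive and GFP-crush, and a high or low value there enters both. Dusp2 was higher in both (3.91 and 1.77), Dusp6 lower in both (-1.10 and -1.0), and Dusp1 and Spry2 higher in the first (0.82 and 1.72) and lower in the second (-0.86 and -0.68). Dusp5 was higher in the first (2.47) and did not pass in the second (-0.06). Across the 19 libraries, Dusp5 and Spry2 had a Pearson r of 0.91, Dusp1 and Spry2 of 0.85, and Dusp2 and Dusp6 of -0.68. These correlations rest largely on the group differences and describe these libraries.

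By the same measure, the genes most like Dusp1 were Klf6 (r = 0.957), Ccnl1 (0.955) and Egr1 (0.954). Those most like Dusp2 were Birc3 (0.963), H2-Q2 (0.961) and Cd83 (0.960). Dusp5 was most like Ippk (0.976), Hmox1 (0.974) and Mb21d1 (0.974), and Spry2 most like Acot1 (0.986), Gadd45b (0.986) and Idi1 (0.981). Dusp6 followed another set, Atad3aos (0.916), Clk1 (0.904) and Kansl1l (0.903). For Dusp8, Dusp10 and Dusp14 the nearest genes reached only 0.782, 0.817 and 0.820 (Aplp1, Osgin2 and Fam110b). All values are over 19 libraries in 4 groups.

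The counts for other genes of the pathway stand beside the shares of all genes called higher and lower, which were 11.4% and 17.6% in α9k1-naive against GFP-naive, 7.39% and 15.7% in GFP-crush against GFP-naive, and 4.47% and 5.27% in α9k1-crush against α9k1-naive, with 0.911% called in either direction in α9k1-crush against GFP-crush. The 11 other Dusp genes measured were listed by family name and not for a known action on MAP kinases. Of these, 1 was called higher and 4 lower in α9k1-naive against GFP-naive, with a median log2FC of 0.07 against -0.08 over all genes. Dusp26 was higher (log2FC 1.0, limma adjusted p = 0.0139), and Dusp23 (-1.36) and Dusp15 (-0.91) were lower. In GFP-crush against GFP-naive 2 were higher and 1 lower, among them Dusp23 (0.71) and Dusp19 (-0.75). In α9k1-crush against α9k1-naive 2 were higher, with Dusp23 at 1.58, and against GFP-crush 0 of 11 were called. Dusp23 was lowest in α9k1-naive (mean level 1.47, against 2.69 to 3.45 in the other groups), the group in which Dusp5 and Spry2 were highest.

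The other Sprouty and Spred genes restrain the same step as Spry2. Of 3 measured, 1 was called higher (Spry4, log2FC 0.71) and 1 lower (Spred1, -0.45) in α9k1-naive against GFP-naive, while Spry1 (-0.56) did not pass. After crush in the controls all 3 were called lower, with Spry1 at -1.74 (limma adjusted p = 0.0194) and Spred1 at -0.43 (0.0536), as was Spry2. In both comparisons with α9k1-crush 0 of 3 were called.

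Of 12 other negative regulators, 2 were higher and 2 lower in α9k1-naive against GFP-naive, close to the shares of all genes. Trib1, a pseudokinase that brings targets to a ubiquitin ligase, had a log2FC of 2.34 (limma adjusted p = 1.39e-07) and Trib3 of 1.16 (0.0112), whereas the Ras GTPase activator Rasa1 was lower (-0.80, 0.019). Trib1 was also the only regulator called in α9k1-crush against GFP-crush (1.83, 0.033). In GFP-crush against GFP-naive 0 were higher and 5 lower, led by Errfi1, an inhibitor of the EGF receptor (-1.04, 0.00158), Lrig1 (-0.85) and Rasa2 (-0.66). In α9k1-crush against α9k1-naive, Rasa1 was higher (1.29), and Trib3 (-1.57) and Trib1 (-0.94) were lower.

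The kinases of the MAP kinase relays were measured in the same libraries. Of 10 MAP kinases 1 was called higher and 2 lower in α9k1-naive against GFP-naive, near the 11.4% and 17.6% of all genes, including the p38 kinase Mapk12 (log2FC -0.56), and 0 in α9k1-crush against GFP-crush. In GFP-crush against GFP-naive the p38 kinase Mapk11 was higher (0.53) and Mapk14, another p38 kinase, was lower (-0.61). In α9k1-crush against α9k1-naive Mapk12 was higher (0.98) and Mapk3, which encodes ERK1, lower (-0.67). Of 13 Ras, Raf and MAP2K genes, 1 was higher (Map2k3, 0.78) and 1 lower (Map2k5, -0.81) in α9k1-naive against GFP-naive, below the 11.4% and 17.6% of all genes, Hras alone was called after crush in the controls (0.31), and 0 were called in the other 2 comparisons. Of 12 MAP3K and scaffold genes, 1 was higher and 5 lower in α9k1-naive against GFP-naive, beside the same shares, with Map3k4 (-0.71) and Mapk8ip1 (-0.48) among the lower ones. The higher one was Map3k8, the kinase that drives MEK and ERK downstream of inflammatory receptors, whose log2FC was 3.12 (limma adjusted p = 1.18e-08). Map3k8 was higher in α9k1-crush against GFP-crush too (2.05, 0.0205), and lower in α9k1-crush against α9k1-naive (-1.13, 0.052). Its group means were 2.06 in GFP-naive, 2.09 in GFP-crush, 3.93 in α9k1-crush and 5.20 in α9k1-naive, with the α9k1 groups above both GFP groups as for Dusp5.

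Genes known as output of ERK signalling rose and fell as well. Of 8 measured, 5 were called higher and 0 lower in α9k1-naive against GFP-naive, with a median log2FC of 0.86 against -0.08 over all genes. Fosl1, an AP-1 subunit that ERK stabilises, had a log2FC of 4.41 (limma adjusted p = 1.87e-09), Phlda1 of 2.73 (4.92e-08) and Egr1 of 1.41 (4.15e-05). In α9k1-crush against GFP-crush these same 3 were called, at 3.20, 2.33 and 2.12 (adjusted p = 0.00247, 0.00893 and 0.0141). In GFP-crush against GFP-naive 6 of 8 were lower, led by Egr1 (-1.26), Etv4 (-1.25) and Ier3 (-0.94), and in α9k1-crush against α9k1-naive 4 were lower, led by Etv4 (-2.02), Fosl1 (-1.62) and Phlda1 (-1.18). Of the Ets factors in this list, Etv4 had a log2FC of 0.98 in α9k1-naive against GFP-naive (limma adjusted p = 0.00366), while Etv5 (0.05, 0.877) and Etv1 (-0.10, 0.832) did not pass.

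**Figure D3:**
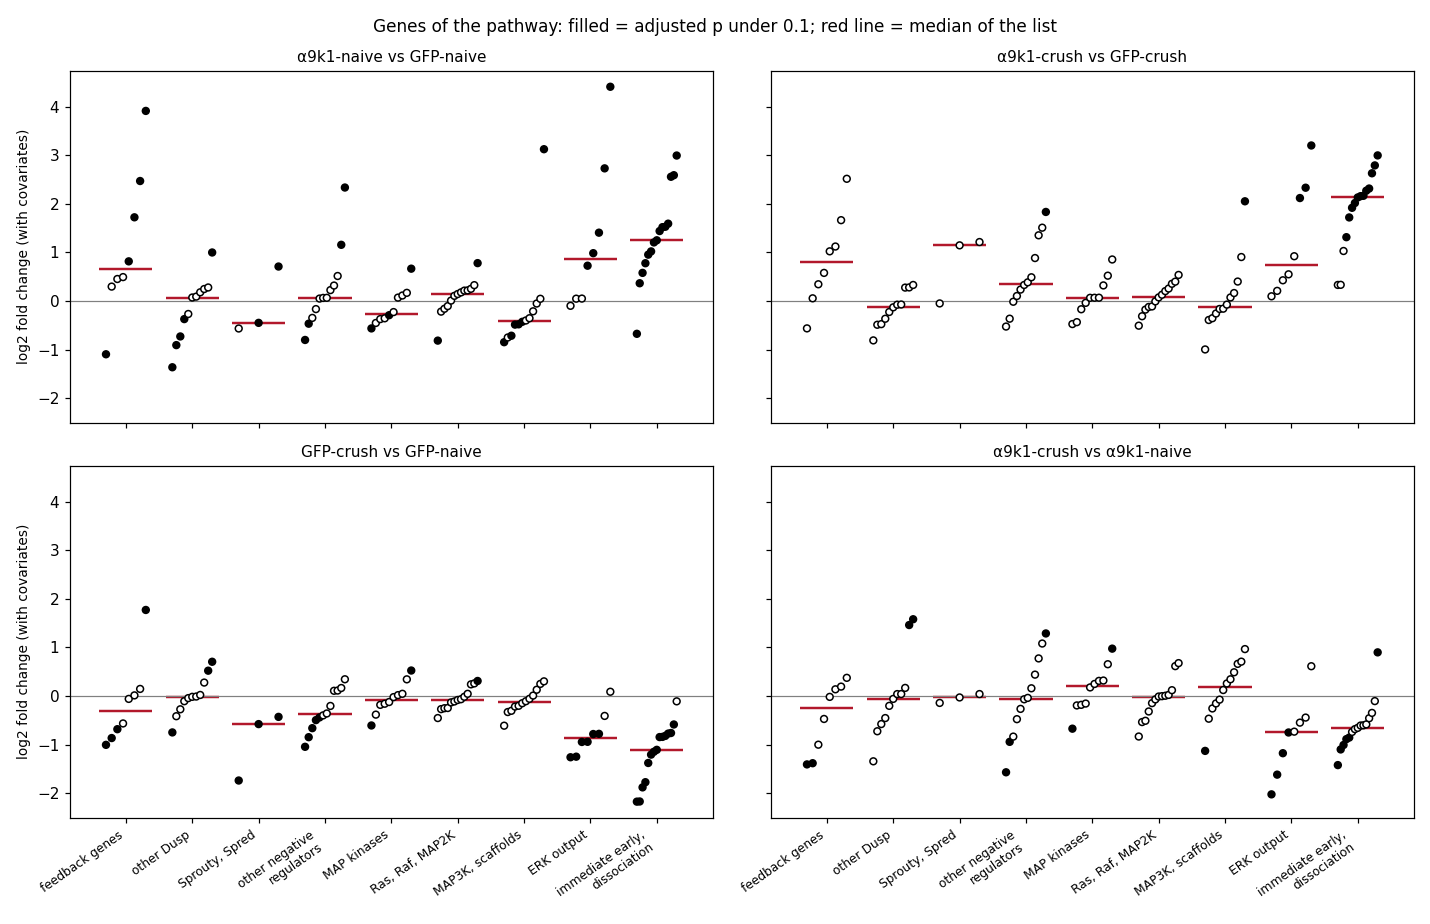
Fitted log2 fold change (vertical axis, with covariates) of every measured gene of 9 lists (horizontal axis) in the 4 comparisons, filled where the adjusted p was below 0.1, with the median of each list in red. The feedback genes, ERK output and dissociation genes are spread more widely than the MAP kinases and the Ras, Raf and MAP2K genes, of which a few are called.

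The dissociation list moved largely in one direction in each comparison. Of its 15 genes 14 were called higher and 1 lower in α9k1-naive against GFP-naive (median log2FC 1.25), 12 higher in α9k1-crush against GFP-crush (2.13), 14 lower in GFP-crush against GFP-naive (-1.11), and 1 higher and 5 lower in α9k1-crush against α9k1-naive (-0.65). Its leading genes were Atf3 (2.99), Zfp36 (2.59) and Socs3 (2.56) in the first of these, Zfp36 (3.0), Socs3 (2.79) and Btg2 (2.63) in the second, Hspa1b (-2.17), Hspa1a (-2.17) and Btg2 (-1.88) in the third, and Atf3 (-1.42), Ier2 (-1.10) and Fosb (-1.01) in the last. Atf3, Jun and Socs3 are also genes of the axon injury response, so the list does not separate handling from injury. Dusp1 followed the sign of this list in 3 of the comparisons and had a log2FC of -0.02 in the last. In GFP-crush against GFP-naive, where 14 of 15 listed genes were lower, Dusp2 had a log2FC of 1.77.

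**Figure D4:**
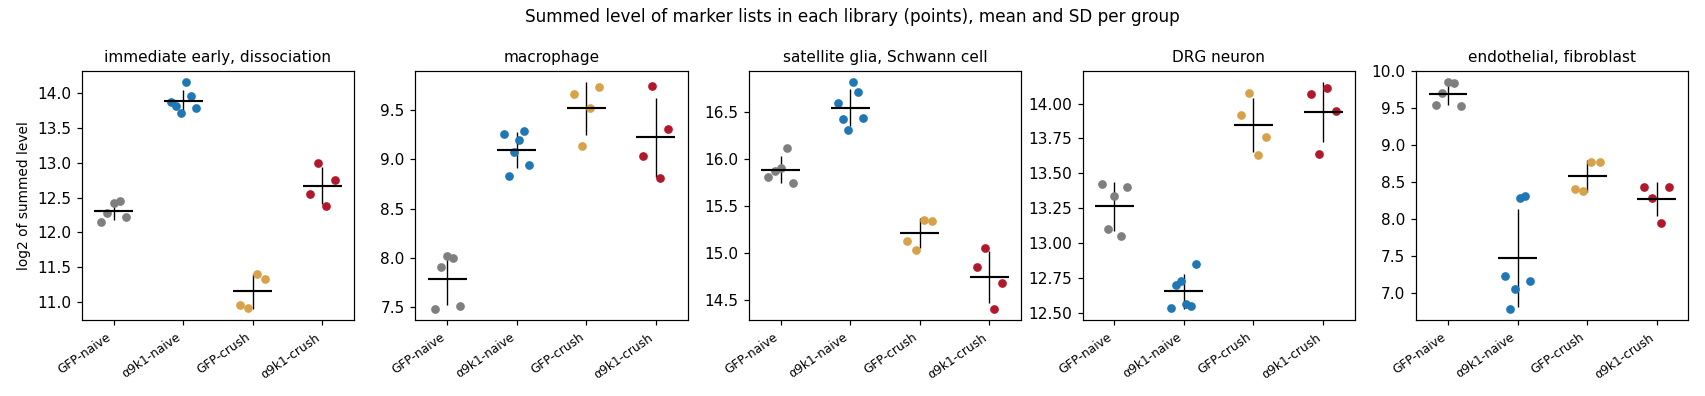
Log2 of the summed level (vertical axis, a separate scale for each list) of the dissociation genes and of 4 lists of cell type markers in each library (points), with the group mean and SD. The dissociation sum is highest in α9k1-naive and lowest in GFP-crush, the order of Dusp1, and the macrophage sum is lower in GFP-naive than in all other groups.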

How the data were processed

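RNA of FACS-sorted DRG neurons was sequenced after SMART-Seq v4 amplification, which does not mark strand. Per the study's methods, the authors aligned reads with STAR to mm10 and counted them with Salmon, then kept out genes under 10 reads in over 80% of samples and normalised with cqn for length and depth. The deposited log2 values were used as they stand. The deposited library metrics, which hold read counts, fractions, percent values and ratios (5 columns held a neighbouring metric), gave 3 covariates, the leading principal components of 48 scaled metrics. The authors' own fold changes and p-values were not used, and the mean level beside them was used only to check the row order of the gene names (r = 0.959 in order, at most 0.0984 when shifted).

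Groups came from the sample titles. limma 3.58.1 in R 4.3.3 fitted 4 group means and the covariates to 12629 genes in 19 libraries, and was tested on simulated data. The study's own model also included batch. The sample table holds no batch, so batch was left out of this fit, and whether it differed between the groups is unknown. The members and lists were chosen with earlier results of these data known. Outside the 8 members, the text names up to 3 genes per list and comparison with the largest log2FC, taken from called genes with separate groups, and Spry1, Spry4, Spred1, Etv1, Etv4, Etv5, Adgre1, Uchl1 and Apoe where a count or level needed them, chosen after their values were seen. Alternatives were fits without covariates, of 2 groups only, without the lowest 25% of genes, after quantile normalization or median centring, with the replicate number as a block, and without each library in turn. Promoters came from RefSeq (GRCm38.p6), and overlapping exons from GENCODE.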

Additional observations from a re-analysis of the deposited data

How the results depend on the processing

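Counts of called genes among the 8 changed as follows. In α9k1-crush against GFP-crush, 0 became 5 without covariates and 5 with the replicate number as a block and no covariates, and 0 to 1 when each library was left out. In α9k1-crush against α9k1-naive, 2 became 5 without covariates, 5 with the replicate block and no covariates, 1 with the replicate block, 1 without the lowest genes (Dusp5 was then not in the table) and 0 with only both groups fitted. In GFP-crush against GFP-naive, 4 became 2 with only both groups fitted, and 5, with Dusp10 added, without covariates (adjusted p = 0.0936), with the replicate block (0.0873) and without α9k1-naive replicate 6 (0.0906). The interaction count of 0 became 4 without covariates, 3 with the replicate block and no covariates, 1 with median centring, and 0 to 1 when each library was left out. α9k1-naive against GFP-naive stayed within 4 to 7 calls throughout. The share of all genes called changed with the fit as well. In α9k1-crush against GFP-crush it went from 0.911% in either direction to 29.6% higher and 28.3% lower without covariates. That share is not given here for every fit, so these counts alone do not set the 8 genes apart from other genes. The replicate numbers did not pair the libraries: deviations of same-numbered libraries correlated at -0.269 to 0.149 over 25 pairs, and of others at -0.223 to 0.265 over 109 pairs. The cause of these changes was not tested, except where fewer genes or libraries entered. Of the 11 called differences, 0 turned sign under any alternative and 0 lost the call when a library was left out. Differences that turned sign were all small or uncertain ones that had not passed. Without covariates, those of α9k1-crush against α9k1-naive were -0.39 for Dusp2 and -0.036 for Dusp14, those of GFP-crush against GFP-naive 0.0053 for Dusp5 and -0.040 for Dusp8, and the interactions 0.037 for Dusp10 and -0.15 for Dusp14. With the replicate block and no covariates they were -0.55 for Dusp2 and -0.065 for Dusp14 in α9k1-crush against α9k1-naive, -0.0068 for Dusp8 in GFP-crush against GFP-naive, and 0.014 for Dusp10 and -0.20 for Dusp14 as interactions. With the replicate block they were -0.28 for Dusp2 in α9k1-crush against α9k1-naive and -0.18 for Dusp10 in α9k1-crush against GFP-crush. With only both groups fitted, α9k1-crush against α9k1-naive gave 0.29 for Dusp1 and -1.35 for Dusp8, and GFP-crush against GFP-naive gave -0.065 for Dusp8. Median centring gave -0.026 for Dusp10 in α9k1-crush against GFP-crush, 0.080 for Dusp5 in GFP-crush against GFP-naive, and interactions of -0.081 for Dusp14 and -0.0035 for Dusp8, and quantile normalization gave interactions of -0.086 for Dusp14 and -0.021 for Dusp8. When each library was left out, α9k1-crush against α9k1-naive ranged from -0.20 to 0.21 for Dusp1, -0.016 to 1.06 for Dusp2, -0.28 to 0.55 for Dusp8 and -0.0041 to 0.46 for Dusp14. α9k1-crush against GFP-crush then ranged from -0.27 to 0.43 for Dusp10 and -0.0072 to 0.97 for Dusp8, GFP-crush against GFP-naive from -0.19 to 0.14 for Dusp5 and -0.13 to 0.14 for Dusp8, and the interaction from -0.25 to 0.47 for Dusp8 and -0.35 to 0.43 for Dusp14.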
